A study of Sus scrofa with 9 samples.

Results

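The HOX genes of the tooth germ were examined as every row of the deposited expression table whose symbol is HOX followed by A, B, C or D and 1 or 2 digits. This gave 32 of 34580 rows, 9 from the HOXA cluster, 10 from HOXB, 5 from HOXC and 8 from HOXD. The material was the third deciduous molar germ of the mandible in miniature pig fetuses, taken on day 40 (E40), day 50 (E50) or day 60 (E60) of gestation, which the study names the cap, early bell and late bell stages. The GEO growth note instead ties all 3 days to the cap stage. Each stage had 3 libraries of total RNA depleted of ribosomal RNA, and no treatment or genetic change was applied to any group. The study's methods speak of biological replicates, but the labels do not tie the 3 libraries of a stage to separate fetuses, so the p-values measure only the spread between libraries, of which an unknown part may be technical. Expression was given as FPKM, fragments scaled to exon length and to the fragments mapped in the library.

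HOX genes encode homeodomain transcription factors that stand in 4 clusters, and the members at the same position in different clusters form paralogue groups numbered from 1 to 13. Low-numbered groups are switched on early and reach far forward in the embryo, and high-numbered groups act in the trunk, the limb and the tail. The neural crest cells that form the jaw and the mesenchyme of the teeth come from a region in front of the HOX domains, and the first pharyngeal arch is known as a territory without HOX expression. The number of HOX transcripts present in the germ is therefore the question that these rows answer.

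The libraries fell into 2 sets of depth. The 3 E50 libraries and E60 replicate 1 held 14376672 to 16692361 reads, and the 3 E40 libraries with E60 replicates 2 and 3 held 938999 to 1761189. These are called the deep and the shallow libraries below. On log2(FPKM + 0.1), libraries correlated at r = 0.959 to 0.983 among the 4 deep, 0.743 to 0.838 among the 5 shallow, and 0.301 to 0.609 between the sets. No E40 library was deep and no E50 library was shallow, so stage and depth cannot be told apart between E40 and E50. Whole reads were recovered from the FPKM values, and intervals given with a level are exact 95% Poisson intervals on those reads, which cover counting error only. Markers of the jaw were present: 12 of 14 listed first arch and jaw mesenchyme genes, and 6 of 7 dental epithelium genes, exceeded 0.5 FPKM in all 4 deep libraries.

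Of the 32 HOX genes, 1 was detected, taken as above 0.5 FPKM in all 4 deep libraries, and it was HOXD8. Of all 34580 rows, 42.8% met that limit. No other HOX gene exceeded 0.5 FPKM in any deep library, where 50.7% of all rows exceeded it in at least 1. Lowering the limit to 0.1 FPKM in all 4 still gave HOXD8 alone, against 51.2% of all rows. The median over the 32 genes of the mean level in the deep libraries was 0.0257 FPKM, against 0.31 FPKM over all rows. By that mean, 31 of the 32 genes lay below the median row, and HOXD8 lay above 58.2% of rows.

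The rest was close to the limit of counting rather than uniformly absent. A total of 30 genes had at least 1 read in a deep library and 6 had one in all 4, namely HOXD8, HOXD9, HOXD1, HOXD3, HOXC13 and HOXB3. HOXA9 and HOXB13 were at 0 in all 4 deep libraries, as were 18.8% of all rows. For 20 genes the 4 deep libraries together held no more than 3 reads, and 25 genes had no library with more than 3. Every one of the 32 rows had a read in at least 1 of the 9 libraries. A row at 0 throughout was not taken as proof of absence. CDH1, the cadherin of epithelia, and DLX5, a jaw homeobox gene, were listed at 0 in all 9 libraries, and the reason was not tested.

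**Figure D1:**
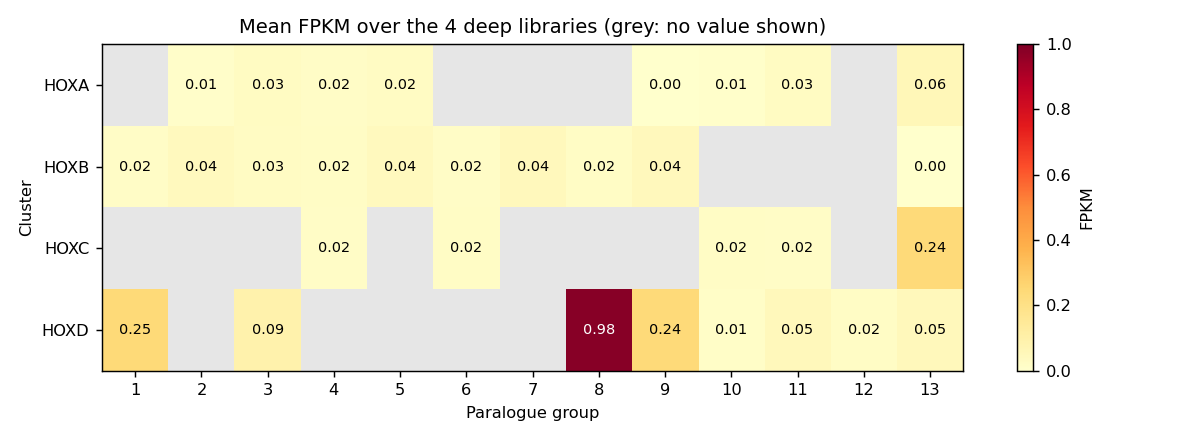
Mean FPKM of each HOX gene over the 4 deep libraries, with clusters as rows, paralogue groups 1 to 13 as columns, and grey where no value is shown. HOXD8 stands at 0.981 FPKM, HOXD1, HOXC13 and HOXD9 are between 0.24 and 0.246 FPKM, and every other gene shown is below 0.1 FPKM.

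HOXD8, a member of the central paralogue groups that pattern the trunk, supplied most of the HOX reads in the deep libraries, 248 of 418, but 13 of 60 in the shallow ones and 4 of 32 at E40. Its 9 libraries read 0, 0.234 and 0.557 FPKM at E40, 0.772, 0.914 and 0.958 FPKM at E50, and 1.28, 0.712 and 0.698 FPKM at E60, in the order of replicates 1 to 3. The corresponding reads were 0, 1 and 3 at E40, 46, 62 and 56 at E50, and 84, 4 and 5 at E60. All 3 E40 libraries were below all E50 and E60 libraries, and E60 overlapped E50.

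The 4 deep libraries pooled gave HOXD8 at 0.986 FPKM (95% interval 0.867 to 1.12, 248 reads), and the 5 shallow libraries 0.495 FPKM (0.264 to 0.847, 13 reads). These intervals did not overlap, but the share of all rows with such a gap was not counted. For E40 alone, 29% of rows with a read had an interval below that of the deep libraries. A scaling factor for each library, the median ratio over rows, was 1.28 to 1.43 in the deep libraries and 0.502 to 1.01 in the shallow ones. The intervals were not scaled by it, so a gap particular to HOXD8 was not shown. Within the shallow libraries, HOXD8 stood at 0.297 FPKM (0.0809 to 0.76, 4 reads) over E40 and at 0.705 FPKM (0.322 to 1.34, 9 reads) over E60 replicates 2 and 3, and these intervals overlapped. Within the deep libraries, E60 replicate 1 was highest at 1.28 FPKM (1.02 to 1.59), with a lower end just under the upper end of E50 replicate 1 (0.565 to 1.03). In bulk tissue, a few cells with much HOXD8 and many cells with little cannot be told apart.

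The mean of HOXD8 was 0.264 ± 0.28 FPKM at E40, 0.881 ± 0.0975 FPKM at E50 and 0.897 ± 0.332 FPKM at E60 (SD, n = 3 each). A two-sided exact permutation test on FPKM gave p = 0.1 for E40 against E50, p = 1 for E50 against E60 and p = 0.1 for E40 against E60. Adjusted by Benjamini-Hochberg over these 3 comparisons, the exact permutation values were 0.15, 1 and 0.15. The smallest p that this permutation test allows with 3 against 3 libraries is 0.1, so it cannot pass 0.05 here. In limma with a filter of at least 0.5 FPKM in at least 3 libraries, the log2 change of HOXD8 from E40 to E50 was 1.80 (SE 0.78, unadjusted p = 0.0448, Benjamini-Hochberg adjusted p = 0.0896), which misses the threshold. No difference between stages is claimed for HOXD8.

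The other members of its paralogue group did not share this level in the deep libraries. HOXB8, at the same position in the HOXB cluster, had 3 reads over the 4 deep libraries, or 0.0229 FPKM (0.00473 to 0.0671), where HOXD8 had 248. The intervals per kilobase of the 2 paralogues were far apart in the deep libraries. They overlapped in the 5 shallow libraries pooled, with HOXB8 at 0.586 FPKM (0.253 to 1.16, 8 reads) and HOXD8 at 0.495 FPKM (0.264 to 0.847, 13 reads). Over E40 alone HOXB8 stood at 0.856 FPKM (0.314 to 1.86, 6 reads) and HOXD8 at 0.297 FPKM (0.0809 to 0.76, 4 reads). HOXC8 was listed under a LOC number and had 2 deep reads. In the deep libraries HOXD8 also exceeded the 7 other HOXD genes. Of these, HOXD1 reached the highest value in a deep library, 0.436 FPKM in E50 replicate 3. This was the nearest any HOX gene came there to the 0.5 FPKM limit from below. Over E40, HOXD1 stood at 0.688 FPKM (0.187 to 1.76, 4 reads), above HOXD8 but with overlapping intervals.

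**Figure D2:**
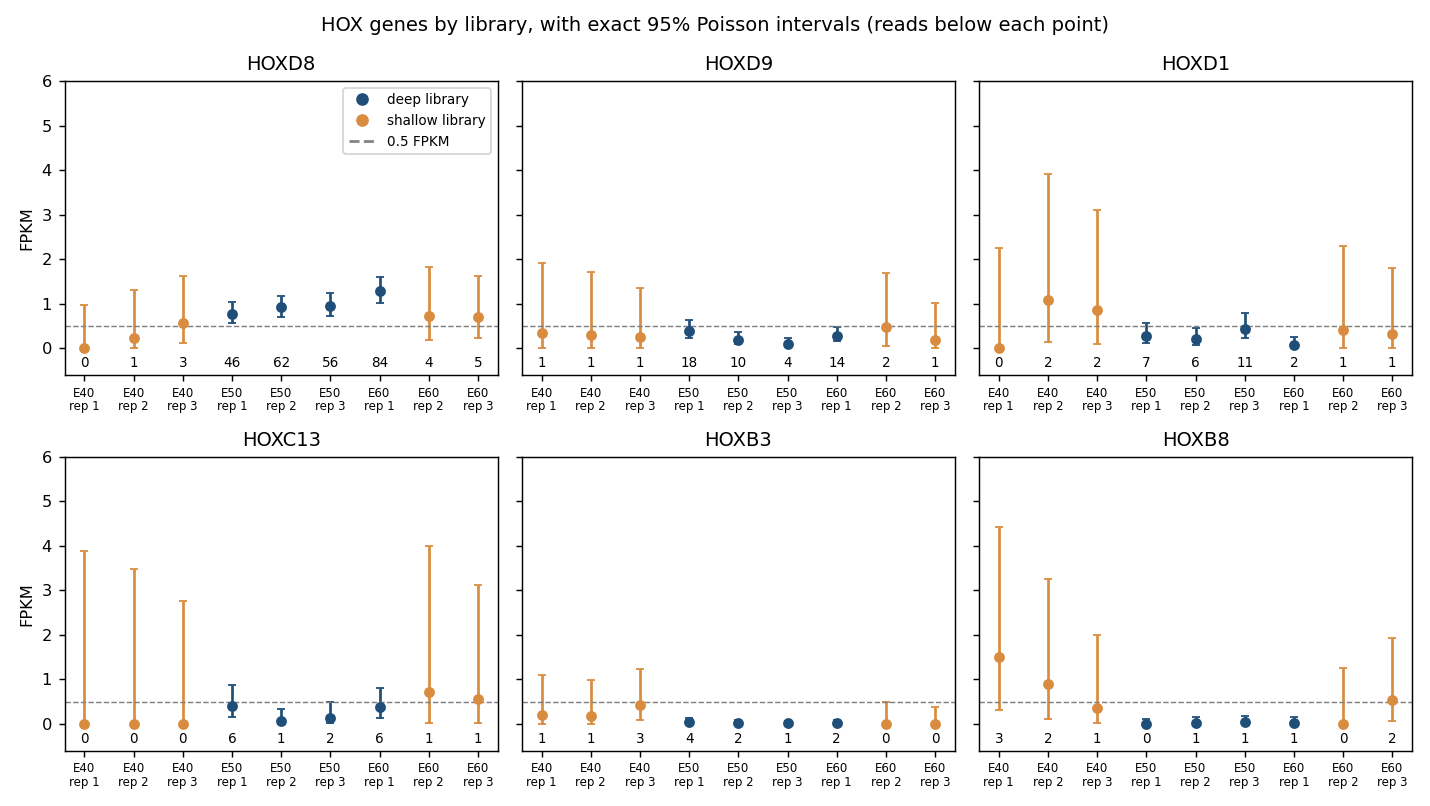
FPKM of 6 HOX genes in the 9 libraries, with exact 95% Poisson intervals as bars, read numbers under the points, deep libraries in blue and shallow in orange, and 0.5 FPKM as a dashed line. HOXD8 is the only one of the 6 above the line in every deep library, and HOXB8 is drawn from at most 3 reads in any library.

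The HOXD cluster held most of the deep reads with and without HOXD8. Over the 4 deep libraries the 32 genes had 418 reads, of which HOXD8 took 59.3% and the 8 HOXD genes together 82.5%. Over the 5 shallow libraries they had 60 reads, of which HOXD8 had 13 and the HOXD genes together 51.7%. Without HOXD8, the other 7 HOXD genes had 97 of 170 deep reads (57.1%) and 18 of 47 shallow reads (38.3%). HOXD9, HOXD1 and HOXD3 followed HOXD8 in the number of deep reads, with 46, 26 and 19.

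HOXD9, the neighbour of HOXD8 toward the limb-patterning end of the cluster, read 0.397, 0.194, 0.09 and 0.281 FPKM in E50 replicates 1 to 3 and E60 replicate 1. These were 18, 10, 4 and 14 reads, and HOXD9 was the only gene besides HOXD8 with more than 3 reads in all 4 deep libraries, which 48% of all rows had. Its 5 shallow values lay between 0.184 and 0.468 FPKM and rested on 1 or 2 reads each. Pooled, the shallow level was 0.3 FPKM (0.11 to 0.654) and the deep level 0.24 FPKM (0.176 to 0.321), so the levels of the 2 sets overlapped.

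HOXD1, at the anterior end of the cluster, had 7, 6, 11 and 2 reads in the deep libraries, or 0.272, 0.205, 0.436 and 0.0706 FPKM. The E60 library was the lowest of the 4 and its interval (0.00856 to 0.255) overlapped those of E50 replicates 1 to 3. In the shallow libraries HOXD1 read 0, 1.08 and 0.861 FPKM at E40 and 0.413 and 0.324 FPKM at E60, from no more than 2 reads each. HOXD3, of the hindbrain-level group 3, had 10, 2, 2 and 5 deep reads, or 0.204, 0.0359, 0.0417 and 0.0929 FPKM. The posterior HOXD10, HOXD11, HOXD12 and HOXD13, known from limb and urogenital patterning, had 2, 2, 1 and 1 deep reads in all.

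HOXC13, which is known for its role in hair, nail and tongue epithelium, had the highest mean outside the HOXD cluster in the deep libraries. It had 6, 1, 2 and 6 reads in the deep libraries, or 0.405, 0.0593, 0.138 and 0.368 FPKM. None of the 3 E40 libraries had a read, which over their pooled depth allows up to 0.895 FPKM at 3 reads, and E60 replicates 2 and 3 had 1 read each (0.716 and 0.562 FPKM). The pooled deep level of 0.24 FPKM (0.134 to 0.395) lay under what E40 could resolve. The other 4 HOXC genes had 1 or 2 deep reads each.

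Genes of paralogue groups 1 to 3, which mark the hindbrain and the arches behind the first, were at trace level outside the HOXD cluster. HOXA2, the gene that separates the second arch from the first, had 1 read in all deep libraries, a pooled level of 0.00972 FPKM (0.000246 to 0.0542). Its paralogue HOXB2 had 4 deep reads, as did HOXA3, and HOXB1 had 1. HOXB3 had 4, 2, 1 and 2 deep reads, and no deep value of it exceeded 0.0506 FPKM.

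The HOXA and HOXB genes of groups 4 to 13 were equally sparse. HOXA4, HOXA5, HOXA10, HOXA11 and HOXA13 had 2, 3, 1, 4 and 2 deep reads. HOXB4, HOXB5, HOXB6, HOXB7 and HOXB9 had 3, 5, 1, 4 and 2, and all 4 reads of HOXB7 came from E50 replicate 2. The recovered exon length behind a row ran from 342 bases for HOXD13 to 5388 bases for HOXB3, so 1 read was worth very different levels. HOXA9, HOXB6, HOXB13, HOXC4, HOXC11, HOXD12 and HOXD13 were above 0 in 1 library only, so their reads and lengths are the smallest whole numbers that fit. The same limit holds for genes with 1 read in each library above 0, such as HOXD11.

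The HOX genes above 0 were unevenly spread over the libraries. In E50 replicates 1 to 3 and E60 replicate 1 there were 24, 18, 8 and 13, while 73.6%, 71.5%, 60.2% and 67.5% of all rows were above 0. E50 replicate 1 thus had the most HOX genes and the most rows with a read, and E50 replicate 3 the fewest of both among the deep libraries. Of the 14 genes of groups 9 to 13, 12 had a read in E50 replicate 1 and 3, 2 and 6 in the other deep libraries. The cause of that spread was not tested.

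Scaled to depth, as rpm (reads of a gene per library total, times 1e6), the 32 genes took 7.77 (95% interval 6.41 to 9.34), 6.17 (5.04 to 7.48) and 5.43 (4.29 to 6.77) in E50 replicates 1 to 3. E60 replicate 1 had 7.62 (6.33 to 9.09). The shallow libraries had 8.52, 10.5 and 9.82 at E40 and 13 and 5.68 in E60 replicates 2 and 3, and the lowest of their intervals began at 2.72. Without HOXD8 the deep libraries held 4.64, 2.46, 1.53 and 2.42 rpm, and the shallow ones 2.84 to 10.1.

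**Figure D3:**
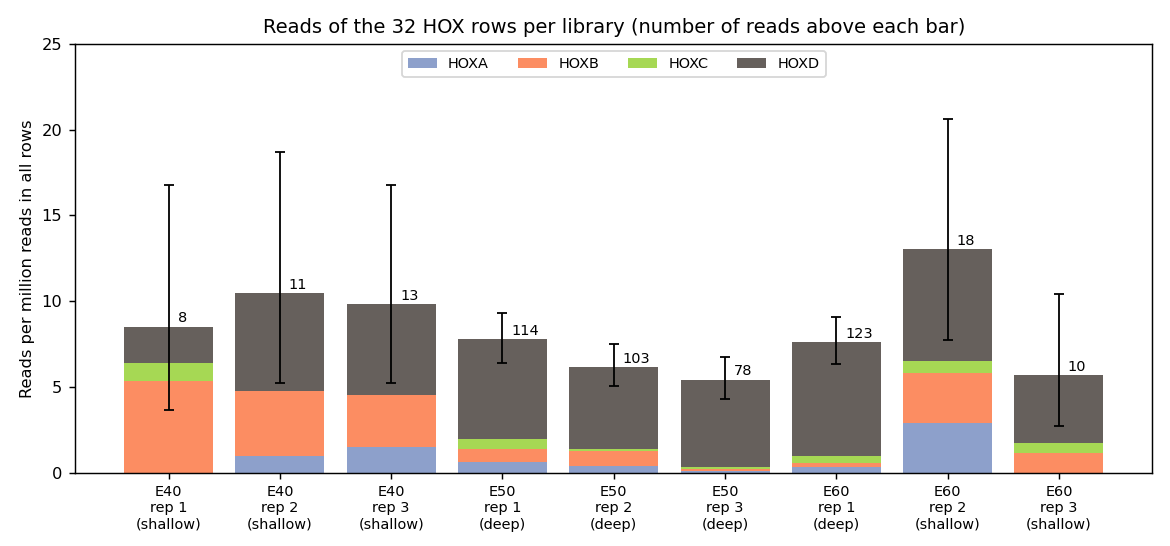
Depth-scaled reads (rpm) of the 32 HOX genes in each library, stacked by cluster, with exact 95% Poisson intervals on the total and the number of reads above each bar. The deep libraries stand between 5.43 and 7.77 with HOXD on top as the largest share, and the shallow libraries rest on 8 to 18 reads each.

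Single reads in the shallow libraries reached high FPKM values. The 5 shallow libraries held 40 HOX values above 0, of which 28 were of 1 read. Of their 17 values above 0.5 FPKM, 15 rested on 1 to 3 reads, and 11 genes exceeded 0.5 FPKM in at least 1 shallow library. The highest value of the whole set, 1.51 FPKM for HOXB8 in E40 replicate 1, was 3 reads. HOXD8 was the 1 gene with more than 3 reads in a shallow library.

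No HOX gene could be called between stages. The comparison across stages, limma on log2(FPKM + 0.1), was run on rows with at least 1 FPKM in at least 2 libraries, and 0 of the 32 genes passed that filter against 56.7% of all rows. HOXD8, HOXD1, HOXB8 and HOXC10 reached 1 FPKM in 1 library each. Over all rows tested, 16.8% were called higher and 21.8% lower at E50 than at E40, and the median row was higher by 0.55 on the log2 scale. From E50 to E60, 0.051% were called higher and 0.0204% lower, and from E40 to E60, 0.663% and 1.14%. The share of calls that were higher was 43.5%, 71.4% and 36.7% in these 3 comparisons, and 32.9%, 85.2% and 55.9% after median-ratio scaling. The counts depended on single libraries. From E40 to E50, 7580 rows were called. Without E50 replicate 2 or 3 there were 58 each, and without E40 replicate 1 there were 209. Without E50 replicate 1, E40 replicate 2 or E40 replicate 3 there were 3431, 3285 and 5282. Without E60 replicate 1, 2 or 3, which are outside that comparison, there were 10650, 10046 and 6741. Leaving out E60 replicate 1, the only deep E60 library, gave 11529 rather than 14 calls from E50 to E60. From E40 to E60 it gave 1181 rather than 354. The few calls from E50 to E60 thus do not show that few rows differ. A gene outside the filter is untested, which is not the same as unchanged.

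With the filter removed, 32 HOX genes were tested and 2 were called from E40 to E50, both lower, beside 13.8% of all rows called lower. HOXB8 read 1.51, 0.9 and 0.357 FPKM at E40 (3, 2 and 1 reads), 0, 0.0284 and 0.0329 FPKM at E50 (0, 1 and 1), and 0.0293, 0 and 0.537 FPKM at E60 (1, 0 and 2). Its log2 change from E40 to E50 was -2.92 (SE 0.82, limma, Benjamini-Hochberg adjusted p = 0.0347). HOXB3 read 0.198, 0.176 and 0.42 FPKM at E40 (1, 1 and 3 reads) and 0.0506, 0.0222 and 0.0129 FPKM at E50. Its log2 change was -1.45 (SE 0.41, limma, Benjamini-Hochberg adjusted p = 0.0342). For both genes all 3 E40 values were above all 3 E50 values, and E40 held 6 reads of HOXB8 and 5 of HOXB3 in all. Both calls were lost when any 1 of the 3 E40 or 3 E50 libraries was left out (limma, Benjamini-Hochberg adjusted p = 0.0518 to 0.112), with the sign kept, and also with the replicate number as a block (adjusted p = 0.071 and 0.0721). Nearly all calls in the table were lost in the same way. Over all rows without a filter, 6702 were called, and 30 to 403 when 1 of these E40 or E50 libraries was left out. The loss is therefore not particular to HOXB8 and HOXB3.

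Other settings called other sets of these low genes from E40 to E50. With a filter of at least 0.5 FPKM in at least 3 libraries, 2 HOX genes were tested and HOXB8 was called lower, as were 21.4% of rows. Without a filter, HOXB3 and HOXB8 were also called lower after median-ratio scaling (15.2% of rows called lower) and without E60 replicate 1, 2 or 3 (16.4%, 15.7% and 13.5%). With limma-voom on recovered reads and no filter, 18 HOX genes were called lower beside 32.6% of rows. That fit adds 0.5 reads to each value before scaling by depth, so a gene with 0 reads at both stages, such as HOXC4, HOXA9 or HOXB13, is lower in the deeper E50 libraries by construction.

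From E40 to E60 without a filter, HOXC13 was called higher when E60 replicate 1 was left out, with a log2 change of 2.88 (SE 0.59, limma, Benjamini-Hochberg adjusted p = 0.0392), beside 1.37% of rows. With all 9 libraries its log2 change was 2.66 (SE 0.59, limma, Benjamini-Hochberg adjusted p = 0.0811). HOXB3 was called lower after median-ratio scaling (log2 change -1.85, SE 0.34, limma, Benjamini-Hochberg adjusted p = 0.033), beside 0.887% of rows. The HOXC13 call rested on 2 reads at E60 and none at E40.

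The same comparison by pooled counting intervals placed E40 above the deep libraries for HOXB3 and HOXB8, below them for HOXD8, and overlapping for the other 29 genes. Of all rows with a read in these libraries, 21.6% had E40 above and 29% below. HOXB8 stood at 0.856 FPKM (0.314 to 1.86) over E40 and at 0.301 FPKM (0.0365 to 1.09, 2 reads) over E60 replicates 2 and 3, so within the shallow libraries the stages overlapped. HOXB3 stood at 0.28 FPKM (0.0909 to 0.653) over E40 and at 0 FPKM (0 to 0.218, 0 reads) over E60 replicates 2 and 3, so these intervals overlapped too. Against all 5 shallow libraries pooled, 1 HOX gene, HOXB8, was higher than in the deep ones, where 21.7% of all rows with a read were, and 31% of rows with no more deep reads than HOXD9.

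Skeletal muscle markers and CDX4 were also lower at E50 than at E40, while calls in the other listed cell types were mixed, higher or absent. Of 12 first arch and jaw mesenchyme genes tested, 5 were called higher at E50 and 2, DLX1 and TFAP2A, lower. Of 5 endothelial genes tested, 2 were called higher at E50 and 0 lower, beside 16.8% of all rows called higher. Of 4 blood and macrophage genes tested, 1 was called higher and 0 lower. Of 6 cartilage and bone genes tested, 1 was called higher and 1 lower. CDX4 was the 1 gene tested of 8 trunk, limb and gut genes. The summed level of the skeletal muscle markers was 141 to 165 FPKM at E40, 16.6 to 17.8 at E50 and 10.3 to 13 at E60. Of 8 muscle markers listed, 5 were tested and 4 of these were called lower at E50, beside 21.8% of all rows tested, while CKM, PAX7 and TNNT3 were at 0 in all libraries. CDX4, a caudal homeobox factor known to switch on HOX genes in the trunk, read 3.9, 1.39 and 1.66 FPKM at E40, at most 0.15 FPKM in the deep libraries, and 3.18 and 0.831 FPKM in E60 replicates 2 and 3. Its log2 change from E40 to E50 was -3.84 (SE 1.20, limma, Benjamini-Hochberg adjusted p = 0.0341), on 5, 2 and 3 E40 reads, and this call was lost without any 1 of the E40 or E50 libraries. The part of these genes, and of depth, in the HOXB values was not tested.

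The HOX clusters were low against their surroundings. In the order given by RefSeq for the pig assembly Sscrofa11.1, the 5 nearest matched protein-coding genes on each side of the 4 clusters gave 40 flanking genes, of which 33 were above 0.5 FPKM in all 4 deep libraries. Their median was 13.9 FPKM, with 8.49 around HOXA, 24.1 around HOXB, 5.12 around HOXC and 35 around HOXD. None of 7 non-HOX rows inside the clusters, microRNA and LOC rows, was detected, against 42.8% of all rows. Whether these libraries could capture the short RNAs of MIR10A, MIR10B and MIR615 was not tested, so those zeros carry no weight here.

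The change of level fell at different genes at the 2 ends of the HOXD cluster. MTX2, a mitochondrial import gene next to HOXD1, read 34.8 FPKM on average in the deep libraries. EVX2, the homeobox gene beyond HOXD13 that is known to share limb enhancers with the posterior HOXD genes, read 0.0324 FPKM. EVX1, beside HOXA13, was likewise at 0.0882 FPKM, and the next gene outward, HIBADH, at 19.6 FPKM. At the other end of HOXA, SKAP2 read 2.95 FPKM, and HOXB was bordered by SKAP1 at 0.193 and TTLL6 at 0.0405 FPKM. HOXC lay between CALCOCO1 at 4.82 and SMUG1 at 5.42 FPKM.

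**Figure D4:**
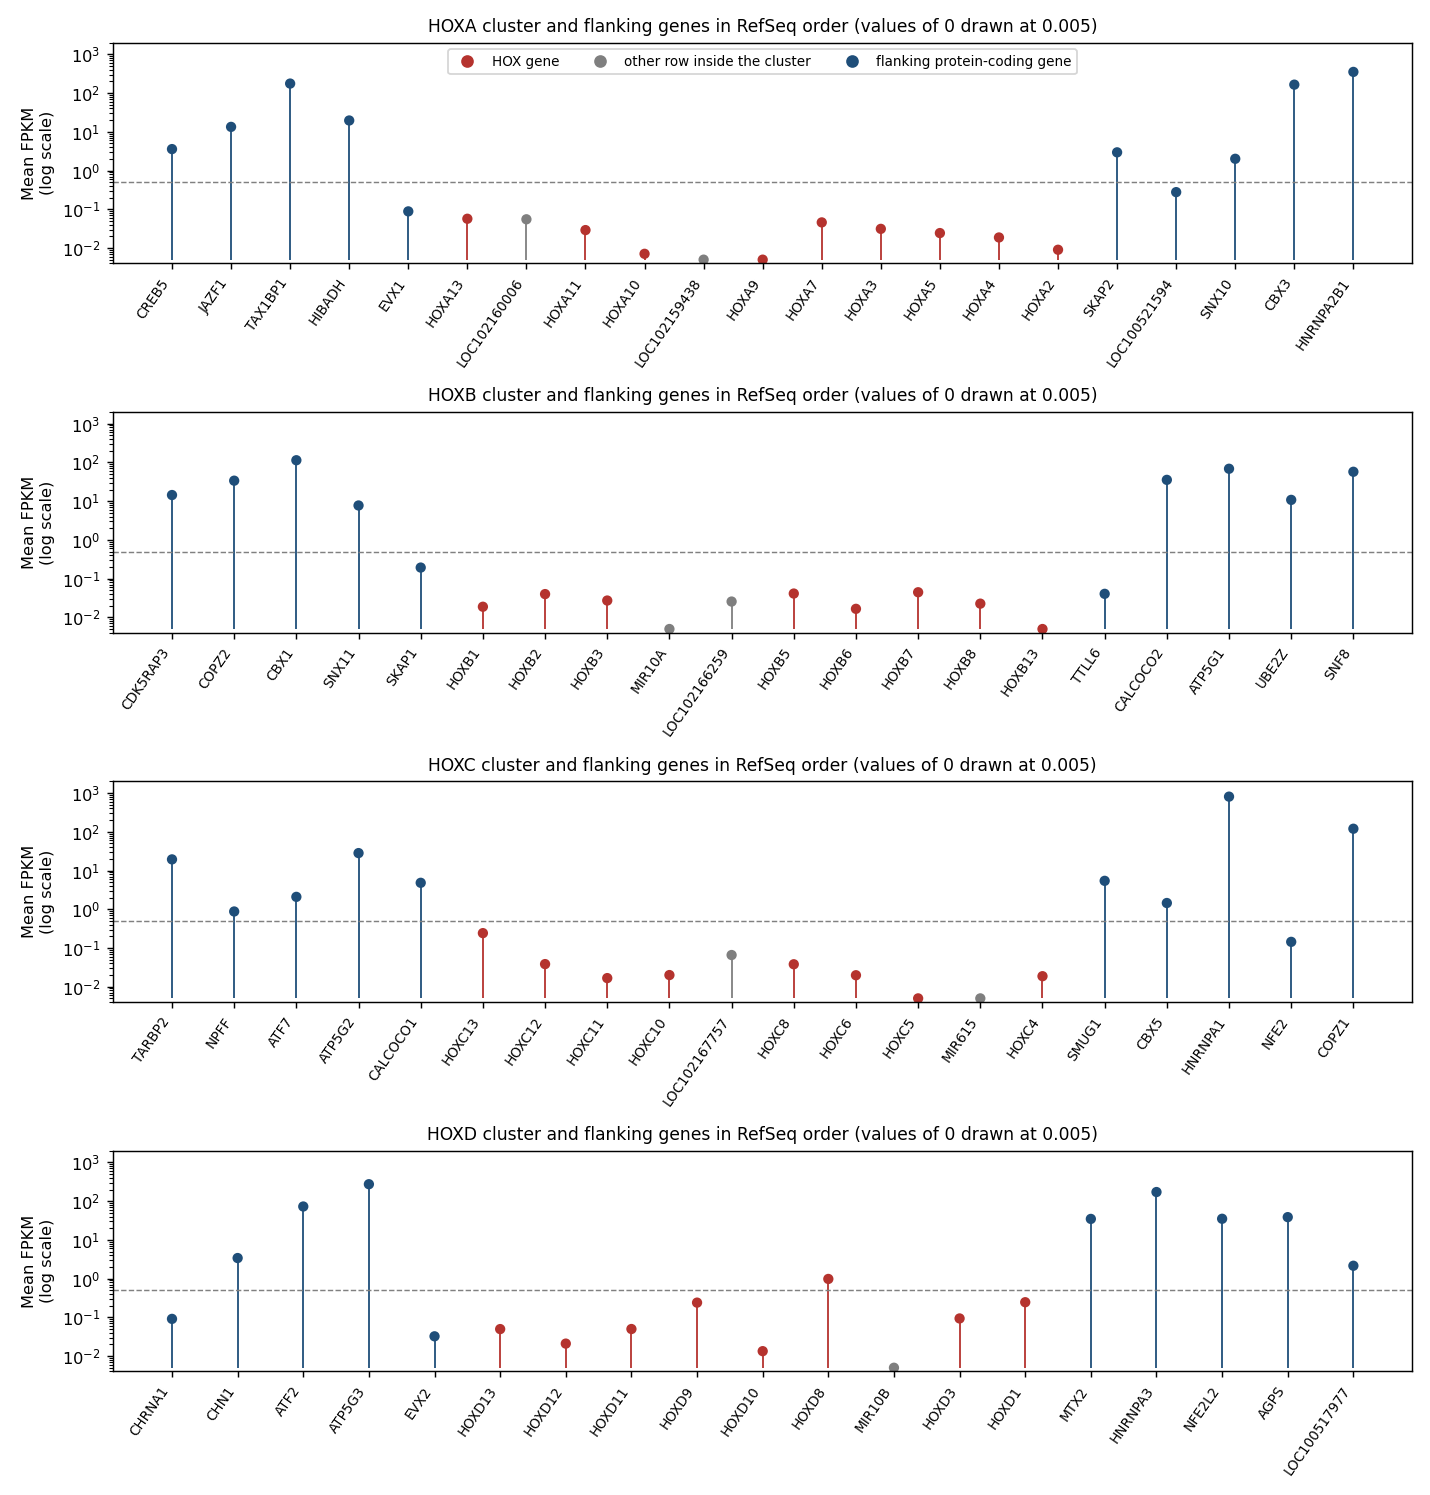
Mean FPKM over the 4 deep libraries (log scale) of HOX genes in red, other rows inside the clusters in grey and flanking protein-coding genes in blue, in RefSeq order, with 0.5 FPKM as a dashed line and values of 0 at 0.005. HOXD8 at 0.981 FPKM is the only red point above the line, 33 of the 40 flanking genes are above it, and HOXB4 and HOXB9 are left out because that RefSeq table does not place them.

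The partners and regulators of HOX proteins were expressed. Of the cofactors of the PBX, MEIS and PKNOX families, which bind DNA together with HOX proteins, 6 of 8 listed genes were detected, with a median of 9.05 FPKM. PBX2 stood at 34.5, MEIS3 at 13.7 and MEIS1 at 9.43 FPKM. From E40 to E50, of 7 cofactor genes tested, MEIS3 and PBX4 were called higher, though not after median-ratio scaling, and MEIS2 lower, beside 16.8% of all rows called higher and 21.8% lower, and MEIS1 was called lower from E40 to E60 (limma, Benjamini-Hochberg adjusted p = 0.0264). MEIS1 read 23.8, 27.1 and 37.8 FPKM at E40 and 5.25, 1.67 and 6.57 FPKM at E60, with no overlap, though the call was lost without any 1 of the E40 or E50 libraries.

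Polycomb proteins, which keep silent HOX clusters in a repressed chromatin state, were represented by 17 genes, of which 16 were detected at a median of 13.9 FPKM. RBBP4 stood at 303, RBBP7 at 91.2, RNF2 at 56.8 and BMI1 at 36.9 FPKM. Of 16 tested, 3 genes, RBBP4, RNF2 and BMI1, were called higher at E50 than at E40 and stayed so after median-ratio scaling, a share near the 16.8% of all rows called higher. Of 10 trithorax and other HOX activator genes, 7 were detected, led by the histone demethylase gene KDM6A at 18.1 FPKM and by WDR5 at 13.7 FPKM, and the 3 not detected were CDX1, CDX2 and CDX4.

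Retinoic acid, which induces anterior HOX genes in the hindbrain, had 10 of its 11 listed pathway genes detected at a median of 24.5 FPKM. The binding protein genes CRABP1 and CRABP2 stood at 473 and 238 FPKM and the receptor gene RARB at 48.2 FPKM. CRABP1 and RARG were called higher at E50 than at E40, as were 16.8% of all rows tested, and neither was after median-ratio scaling. All 33 calls from E40 to E50 among the listed context genes were lost without E50 replicate 2 or without E50 replicate 3. The levels of these regulators stood beside a summed level of all 32 HOX genes of 1.75 to 3.43 FPKM in the deep libraries.

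Other homeobox genes of the jaw and genes of the trunk framed the HOX values. LHX8, BARX1, MSX1 and LHX6, homeobox genes of the first arch mesenchyme, stood at 210, 74.3, 44.4 and 31.4 FPKM in the deep libraries. Each one alone exceeded the 32 HOX genes summed. Of 8 trunk, limb and gut genes, none was detected and the median was 0.041 FPKM, near the HOX median.

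**Figure D5:**
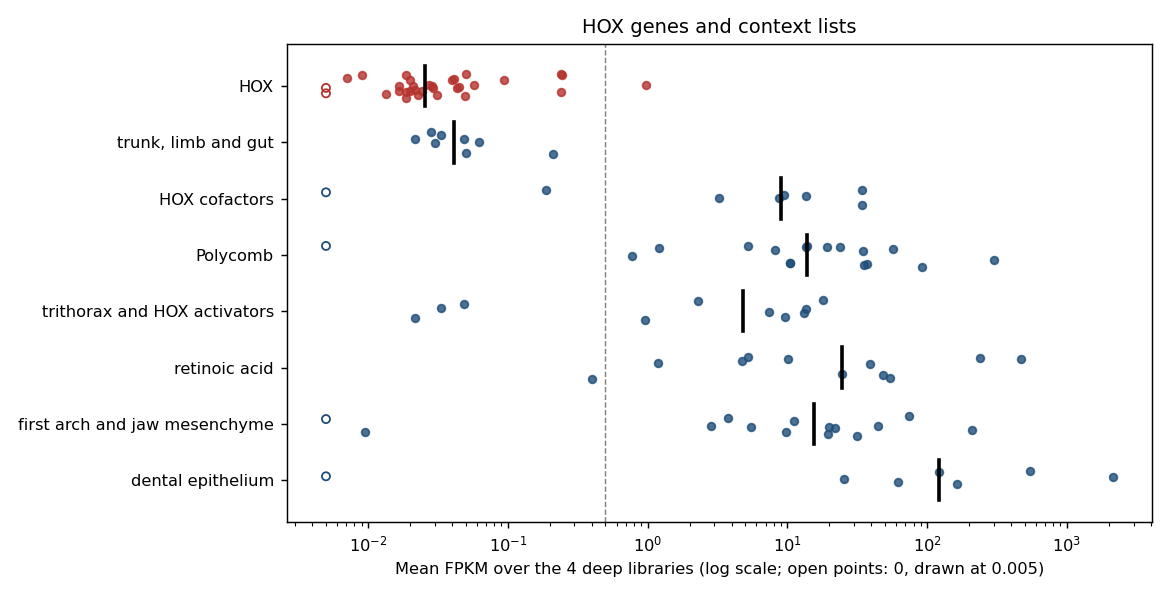
Mean FPKM over the 4 deep libraries (log scale) of each HOX gene in red and of the genes of 7 other lists in blue, with a black bar at each median, 0.5 FPKM as a dashed line, and values of 0 as open points at 0.005. The HOX median is 0.0257 FPKM and the trunk, limb and gut median 0.041 FPKM, while the other 6 medians are between 4.85 and 122 FPKM.

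The 32 rows do not cover every HOX gene. The RefSeq table for Sscrofa11.1 names 36, of which 30 were listed by symbol and 4, HOXA7, HOXC5, HOXC8 and HOXC12, by a LOC number, while HOXA6 and HOXC9 were not analysed here. None of those 4 was detected, with at most 2 reads in any library. HOXA3 overlaps HOXA4 and HOXA5, and HOXD9 overlaps HOXD10 and HOXD11, in that annotation, so reads within these pairs are uncertain. The kit was directional but the strand setting of the counting was not given, so reads from antisense transcripts of the clusters cannot be told apart from those of HOXD8, HOXD1 and the others.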

How the data were processed

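Total RNA depleted of ribosomal RNA was made into directional libraries and sequenced in pairs by the authors, with alignment to Sscrofa10.2 by TopHat per the labels. The authors deposited 1 table of FPKM for 34580 rows and 9 libraries. Replicates were not pooled, and the counter, annotation and strand setting were not given in the sources used here. The members and lists were chosen with earlier results of these data known.

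FPKM is reads divided by exon length and library total. Whole-number reads, lengths and totals that return the deposited FPKM were solved for all 28963 rows above 0 (within 0.005 reads), and the reads found summed to 99.955% to 99.979% of the totals. Tested on simulated data, the step returned 97% of 7040 rows exactly. Totals are the depth, 938999 to 16692361 reads per library. A count of 0 allows 3 reads, and intervals and floors cover counting error only.

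Stages were compared with limma 3.58.1 (R 4.3.3; trend, 1 coefficient per stage) on log2(FPKM + 0.1) in rows with at least 1 FPKM in at least 2 libraries (19618 rows), since FPKM are not counts. A call needed a Benjamini-Hochberg adjusted p under 0.05 and a log2 change of at least 1. The study's count-based differential test was not applied. Tested on simulated data for E40 against E50 on those 19618 rows, this called 114 of 200 rows changed by a log2 of 2, and 9 unchanged ones. The simulated spread was set below the spread seen within stages, and deep and shallow sets were not simulated. Those rates therefore do not carry over to the real libraries. Other computing used Python 3.11.15 (scipy 1.17.1 for exact tests and intervals, pandas 2.3.3 for tables, numpy 2.4.6, and matplotlib 3.10.9 for plots). Alternatives were the pseudocount, the filter, median-ratio scaling, a replicate block, fewer libraries and limma-voom on recovered reads.

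Genes above 0.5 FPKM in a deep library, or past the limits between stages, were to be given in every library, which the main comparison met for HOXD8 alone. HOXD1, HOXD3, HOXD9, HOXC13, HOXB3, HOXB8 and genes given by reads were added after their values were seen, as were DLX5, CDH1 and the flanking genes. Context lists name at most 4 genes by level and any past the limits. RefSeq gave names and gene order only. No sequence is printed, and some listed genes are not reported here.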

Additional observations from a re-analysis of the deposited data

How the results depend on the processing

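HOXD8 was the 1 HOX gene detected above 0.5 FPKM in any, 2 or all 4 of the deep libraries. The count was the same without each deep library in turn (1 to 1). HOXD8 read 0.772 to 1.28 FPKM in the deep libraries, and no other HOX gene listed by symbol exceeded 0.436 FPKM there. Those counts therefore could not have differed and are not separate checks. HOXD8 was also the 1 gene above 0.1 FPKM in all 4, after median-ratio scaling, and with the LOC-numbered HOX rows added. Above 1 FPKM in all 4 deep libraries the count was 0, and with more than 3 reads it was 2, HOXD8 and HOXD9. With the filter on low values, 0 HOX genes were tested, and so 0 called, in each comparison under both other pseudocounts, scaling, voom, the fit of only 2 stages, the replicate block and without any 1 library (0 to 0). With a filter of 0.5 FPKM in 3 libraries, 1 of 2 tested was called from E40 to E50. The following fits without a filter were, apart from the first, chosen after seeing the data. From E40 to E50 they called 2 HOX genes, again 2 after median-ratio scaling, 2 without each E60 library, 0 without each E40 or E50 library (0 to 2 over all 9) and 18 with limma-voom. From E40 to E60 they called 0, then 1 after scaling and 1 without E60 replicate 1 (0 to 1). From E50 to E60 each called 0 by limma, with 0 HOX genes at an unadjusted p under 0.05 in the fit of all 9 libraries and 7 by limma-voom. Replicate numbers did not pair the libraries: deviations of same-numbered libraries correlated at -0.52 to 0.11 and of others at -0.38 to 0.42. With the number as a block, 0 HOX genes were called without a filter, and 5104 rather than 7580 rows from E40 to E50, 4 rather than 14 from E50 to E60 and 82 rather than 354 from E40 to E60. Of 189 alternative values for stage differences of 7 HOX genes, 164 moved by less than 1 SD and 25 by more. None of these differences was called in the comparison with all 9 libraries and the filter, and the sign changed in at least 1 comparison and setting, fits without a filter included, for HOXB3, HOXB8, HOXC13, HOXD1, HOXD3, HOXD8 and HOXD9. Of 1071 alternative values for context genes, 562 kept the call and 509 lost it, none with a changed sign. At E40, 3 reads of a gene of 1 kilobase stood for 2.27 to 3.19 FPKM in a library, and 3 reads of the longer HOXD8 for 0.557 to 0.786 FPKM, under its deep level of 0.986 FPKM. No E40 library matched an E50 library in depth.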
